A study of Mus musculus with 18 samples.

Results

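The nuclear genes of mitochondrial oxidative phosphorylation were followed across 6 groups of mouse B-cell lymphoma cultures. Members were chosen by gene symbol alone: probe sets with a single platform symbol that starts with Ndufa, Ndufb, Ndufc, Ndufs, Ndufv, Uqcr, Cox4 to Cox8 or Atp5, or that equals Sdha, Sdhb, Sdhc or Sdhd, with the brightest probe set standing for each gene. The rule gave 90 of the 18194 genes on the array. No measured difference entered the rule, but the gene set was proposed with earlier results of these data known. By complex these were 34 genes of complex I, 8 of its assembly, 4 of complex II, 8 of complex III, 19 of complex IV and 17 of complex V. Symbols with Ndufaf were counted as complex I assembly, and Ndufa4 and its paralogue Ndufa4l2, which carry complex I symbols, were counted with complex IV.

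Complexes I and II pass electrons from NADH and succinate to ubiquinone, complex III hands them to cytochrome c, and complex IV reduces oxygen with them. Complexes I, III and IV pump protons across the inner mitochondrial membrane, and complex V, the ATP synthase, uses the returning protons to make ATP. The core of complexes I, III, IV and V holds subunits coded by mitochondrial DNA, so that the nuclear genes listed here are the larger but not the whole set of parts. In B cells the demand on this machinery is known to increase when the cells grow and divide, a programme that the transcription factor Myc drives.

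The cultures came from 3 primary lymphomas, numbered 4146, 4936 and 5043, each from a mouse with the Eµ-myc transgene, which drives Myc in B cells, on a C57/Bl6 background. All 6 groups lack Suv39h1, a histone methyltransferase of silent chromatin, and all were transduced with Suv39h1-ERT2, a fusion that 4-hydroxytamoxifen (4-OHT) can switch on, and with the apoptosis inhibitor Bcl2. Cells were treated for 5 days with Adriamycin (ADR), which breaks DNA, together with 4-OHT (ADR+4-OHT 5 d, 3 arrays) or with ADR alone (ADR 5 d, 3 arrays). After 14 further days without the drugs, ADR+4-OHT cultures were sorted by morphology into big cells (big outgrowth, 3 arrays) and small cells (small outgrowth, 3 arrays), and ADR cultures were taken unsorted (ADR outgrowth, 2 arrays). Untreated cells of the same lymphomas gave 3 arrays. There is no group with 4-OHT alone, each lymphoma is the tumour of 1 mouse, and the ADR outgrowth of lymphoma 5043 failed quality control by its label and holds no values. Values are log2 signals of Affymetrix arrays, listed below in the order of lymphomas 4146, 4936 and 5043. The levels of different probe sets cannot be set against each other.

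The arrays correlated at 0.867 to 0.986 with each other. Of 15 B-cell markers, 13 to 15 were at or above 4.86, the median of all values, on every array of a group. This count says whether a marker was read, and not how its level moved. The arrays labelled ADR 5 d of 4936, small outgrowth of 5043 and big outgrowth of 5043 had scores of 66.8, 58.5 and 66.3 on the leading principal component, while no other array exceeded 5.94. The array labelled ADR+4-OHT 5 d of 4146 was also put in doubt by an earlier analysis of these data, and the basis of that doubt was not re-examined here. Results that use these 4 arrays are given below with and without them where that matters. The cultures are bulk samples, in which fewer cells of a type and less RNA per cell cannot be told apart.

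Of the 90 members, 87 passed the filter on low values (at least 4.86 on at least 3 arrays) and were tested among 11897 genes. Ndufb4, a complex I subunit, and Cox6b2 and Cox7b2, isoforms of complex IV known from testis, lay under that value on all 17 arrays. For Ndufb4 the platform also has a probe set shared with Ndufb4b and Ndufb4c, which the single-symbol rule left out. The low value of the probe set used therefore does not show that the gene is silent. Cox8b and Cox7a1, complex IV isoforms of heart and skeletal muscle, were the members just inside the filter, at or above it on 14 and 16 arrays. The members varied less than other genes: the median SD over the 17 arrays was 0.233 on the log2 scale for the 87 members and 0.327 for all genes tested. Their probe sets were also brighter, and the SDs were not matched for signal. The median of the mean log2 signal was 11.4 for the 90 members and 7.78 for all genes tested. In 82 of 87 members the SD was under 0.5, and it was at least 1 in 2 of them, Cox6a2 (1.57) and Cox7a1 (1.17).

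**Figure D1:**
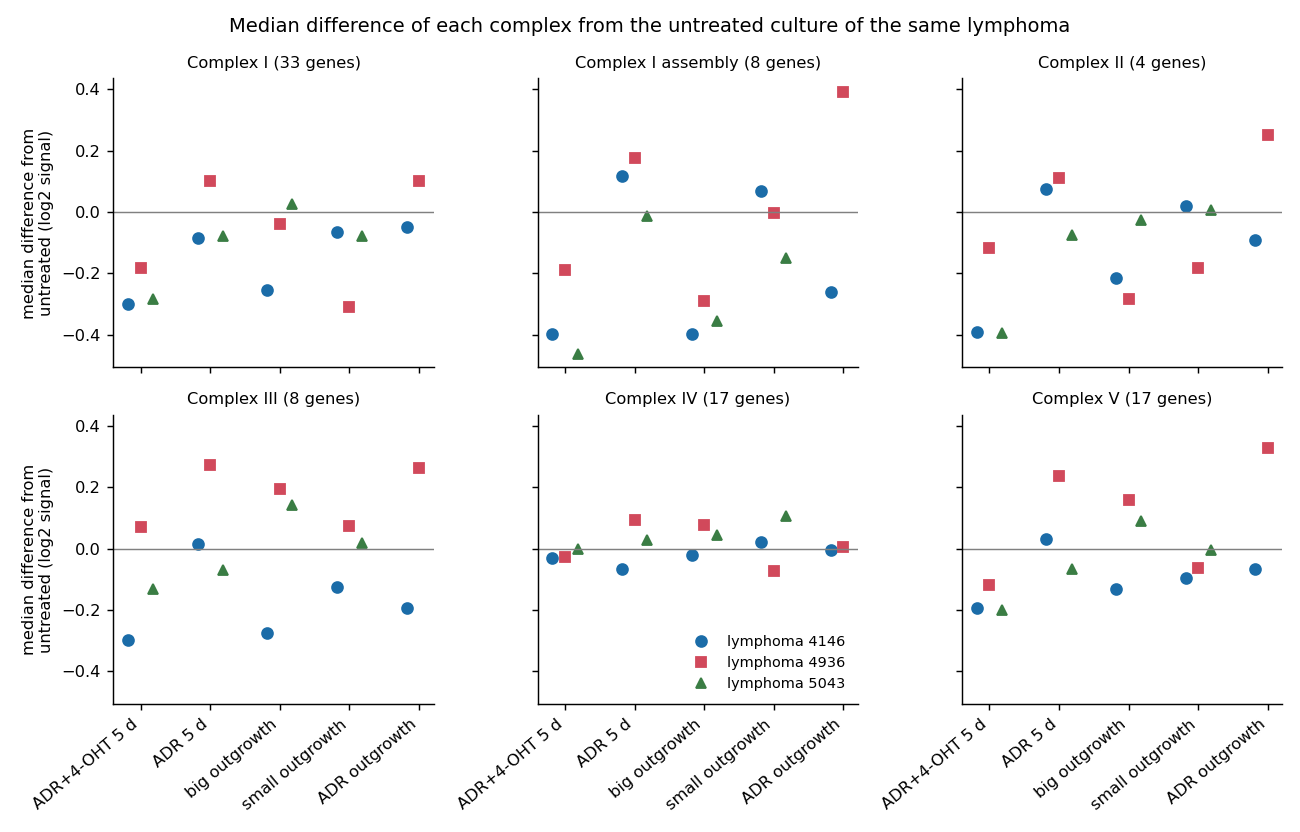
Median difference (log2 signal) of each complex from the untreated culture of the same lymphoma, by group along the horizontal axis; each point is 1 array and its shape marks the lymphoma. Complex I and its assembly factors lie under 0 in ADR+4-OHT 5 d cultures of all 3 lymphomas (complex I between -0.30 and -0.18), whereas complex IV lies between -0.03 and 0.00 there.

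Relative to untreated cells, 5 of the 87 members fell and none rose when ADR and 4-OHT had been given for 5 days. They were Ndufs7 of complex I, the complex I assembly factors Ndufaf3, Ndufaf5 and Ndufaf6, and Uqcrc2 of complex III, with falls of 1.46- to 2.15-fold. Over all genes 2.94% passed in this comparison, 2.05% falling and 0.891% rising (limma, adjusted p under 0.05). The median difference over the 87 members was -0.20 on the log2 scale, a level of 0.868 of the untreated one, with 66 members negative, beside a median of 0.00 over all genes tested. It was -0.25, -0.11 and -0.25 in lymphomas 4146, 4936 and 5043, and -0.19 over the members without the 4 arrays in doubt.

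Direction was shared by the lymphomas for many members: 41 of 87 (47.1%) were lower in ADR+4-OHT 5 d than in untreated cells in each of the 3 lymphomas, a pattern that 21.4% of all genes had. Only 10 (11.5%) were higher in each of the 3, against 20.7% of all genes. Within single lymphomas the share of members that were lower was 75.9%, 63.2% and 71.3%, beside 51.5%, 46.6% and 52.6% of all genes.

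**Figure D2:**
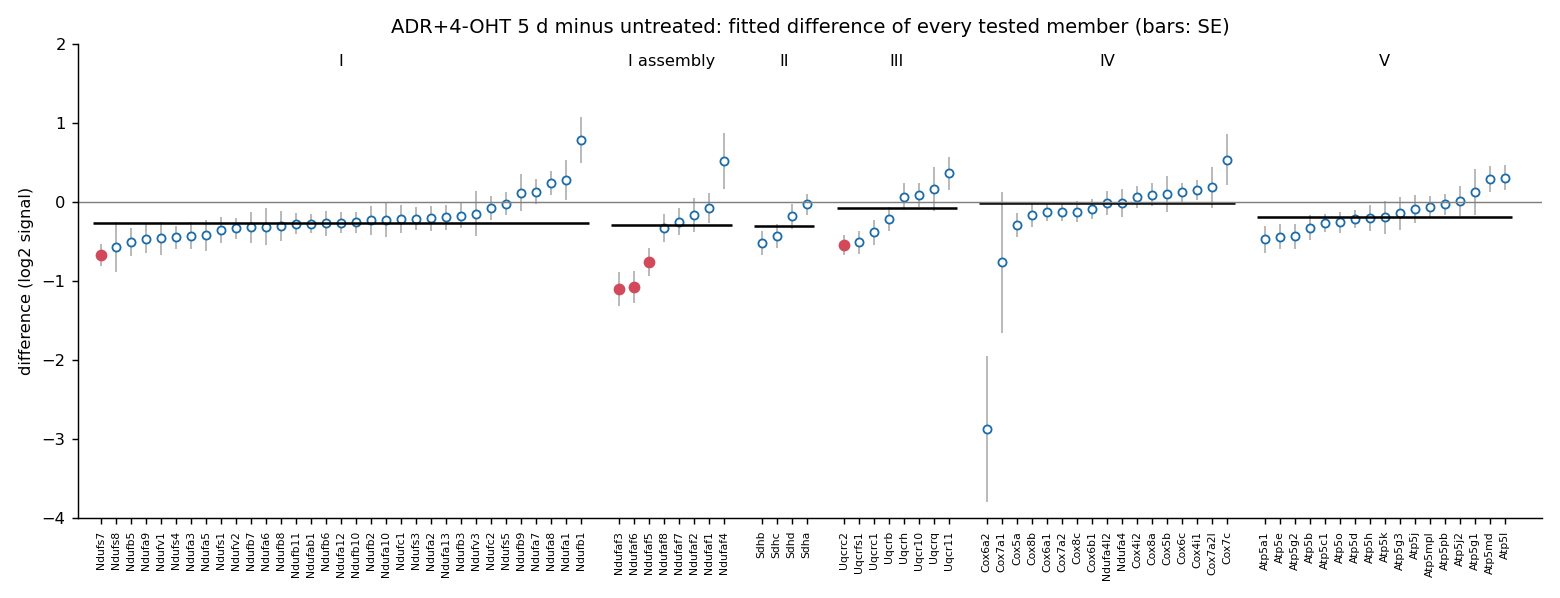
Fitted difference of ADR+4-OHT 5 d minus untreated (log2 signal) for each of the 87 tested members, ordered within complexes; bars are SE, filled points passed at an adjusted p under 0.05, open points did not, and black lines are the median of a complex. The filled points are Ndufs7, Ndufaf3, Ndufaf6, Ndufaf5 and Uqcrc2, and Cox6a2 has the lowest value, -2.87, with a wide SE.

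Complex I and its assembly held 4 of the 5 members that fell. Ndufs7 (chr10:80249105-80256794 in build GRCm38.p6, as all positions here), which carries the last iron-sulfur cluster before ubiquinone, read 10.85, 11.01 and 10.86 in ADR+4-OHT 5 d cultures, against 11.74, 11.50 and 11.50 in untreated cultures. All 3 treated values lay under all 3 untreated ones, a pattern of 38 members (43.7%) and of 15.8% of all genes. The reverse, all treated values above all untreated ones, was seen in 6 members (6.90%) and in 15.2% of all genes. The difference was -0.67 (SE 0.14, limma adjusted p = 0.0288), and a further probe set gave -0.49. Across the 33 tested subunits of complex I the median was -0.26, 28 were negative, and 20 (60.6%) were lower in every lymphoma. The exception at the other end was Ndufb1, a small accessory subunit of the membrane arm, at 9.15, 8.59 and 8.76 in ADR+4-OHT 5 d cultures and 8.32, 7.69 and 8.14 in untreated cultures. Each treated value exceeded all 3 untreated ones, and the difference of 0.78 (SE 0.29) did not pass (limma adjusted p = 0.161).

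The 8 assembly factors, which build complex I but are not part of the finished enzyme, held 3 of the 5 members that fell. Ndufaf6, needed for an early assembly step of the mitochondrial DNA-coded subunits, read 7.96, 7.90 and 8.45 after ADR+4-OHT, against 9.07, 9.36 and 9.10 in untreated cells. Ndufaf3, a partner of Ndufaf4 in the early assembly of the membrane arm, read 7.56, 7.78 and 7.40 after ADR+4-OHT, against 8.25, 8.84 and 8.97 in untreated cells. Ndufaf5, which hydroxylates an arginine of Ndufs7, read 7.08, 7.42 and 7.38 after ADR+4-OHT, against 7.79, 8.38 and 7.98 in untreated cells. They lie at chr4:11048991-11076237 (Ndufaf6), chr9:108565587-108567436 (Ndufaf3) and chr2:140170584-140218965 (Ndufaf5). For each of these 3 genes every treated value lay under every untreated one. The differences were -1.07 for Ndufaf6 (SE 0.21, limma adjusted p = 0.0251), -1.10 for Ndufaf3 (SE 0.21, limma adjusted p = 0.0264) and -0.75 for Ndufaf5 (SE 0.18, limma adjusted p = 0.0467). Ndufaf4 had the opposite sign in its brightest probe set, with 9.43, 9.62 and 10.46 after ADR+4-OHT and 9.82, 8.56 and 9.58 in untreated cells. Its groups overlapped, it was lower in lymphoma 4146, and the difference of 0.52 (SE 0.35) did not pass (limma adjusted p = 0.466). Its second probe set had -0.06 (SE 0.27), so that the sign is not shared.

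The promoter windows of the genes that fell are shown because nuclear respiratory factor 1 and the ETS factor GABP are known regulators of this gene set. Of the 5 genes, Ndufaf5, Ndufs7 and Ndufaf3 had a window in the RefSeq table (build GRCm38.p6), each with 250 bases before and 30 after the transcript start that the table uses, written 5′ to 3′ on the gene's strand. That start lies inside the gene span given above for Ndufs7 and Ndufaf5, whose spans cover several transcripts, so that the whole Ndufs7 window and the end of the Ndufaf5 window fall within them. Capitals mark the site searched for nuclear respiratory factor 1, 10 bases that read the same on both strands. The windows are chr2:140170396-140170675 (+) for Ndufaf5, chr10:80249199-80249478 (+) for Ndufs7 and chr9:108567407-108567686 (-) for Ndufaf3.
Ndufaf5: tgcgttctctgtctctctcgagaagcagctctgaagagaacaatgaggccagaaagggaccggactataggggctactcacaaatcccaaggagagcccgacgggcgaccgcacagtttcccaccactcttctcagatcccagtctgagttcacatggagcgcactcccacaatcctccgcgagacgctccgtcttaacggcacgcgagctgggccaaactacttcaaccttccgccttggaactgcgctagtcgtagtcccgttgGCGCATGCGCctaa
Ndufs7: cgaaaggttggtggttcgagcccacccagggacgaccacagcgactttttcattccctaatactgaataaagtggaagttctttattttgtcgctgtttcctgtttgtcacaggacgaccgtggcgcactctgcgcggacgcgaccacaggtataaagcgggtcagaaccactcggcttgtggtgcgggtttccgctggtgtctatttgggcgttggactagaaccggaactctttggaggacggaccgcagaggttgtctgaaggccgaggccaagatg
Ndufaf3: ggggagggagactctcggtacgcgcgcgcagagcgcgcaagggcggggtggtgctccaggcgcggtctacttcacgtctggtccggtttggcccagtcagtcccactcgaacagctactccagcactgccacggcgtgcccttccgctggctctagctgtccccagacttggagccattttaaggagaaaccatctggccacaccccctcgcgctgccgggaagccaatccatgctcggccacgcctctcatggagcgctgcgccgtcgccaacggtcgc

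The Ndufaf5 window holds that site after the start the table uses, and the letters of the 3 motifs searched are not in the windows of Ndufs7 and Ndufaf3. Among the 74 members with a window, 5 (6.76%) hold the site written in capitals, namely Ndufaf4, Ndufaf5, Cox6a1, Atp5g2 and Atp5k, against 1.02% of the 27025 genes with a window. The ETS motif CCGGAAG, searched on both strands, is in the windows of 19 members (25.7%), among them Sdhb, Sdhd, Ndufaf1 and Ndufaf8, and in 9.48% of all genes. The motif AAGATGGCG of the factor Yy1, also searched on both strands, is in 2 members (2.70%) and in 1.22% of all genes.

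**Figure D3:**
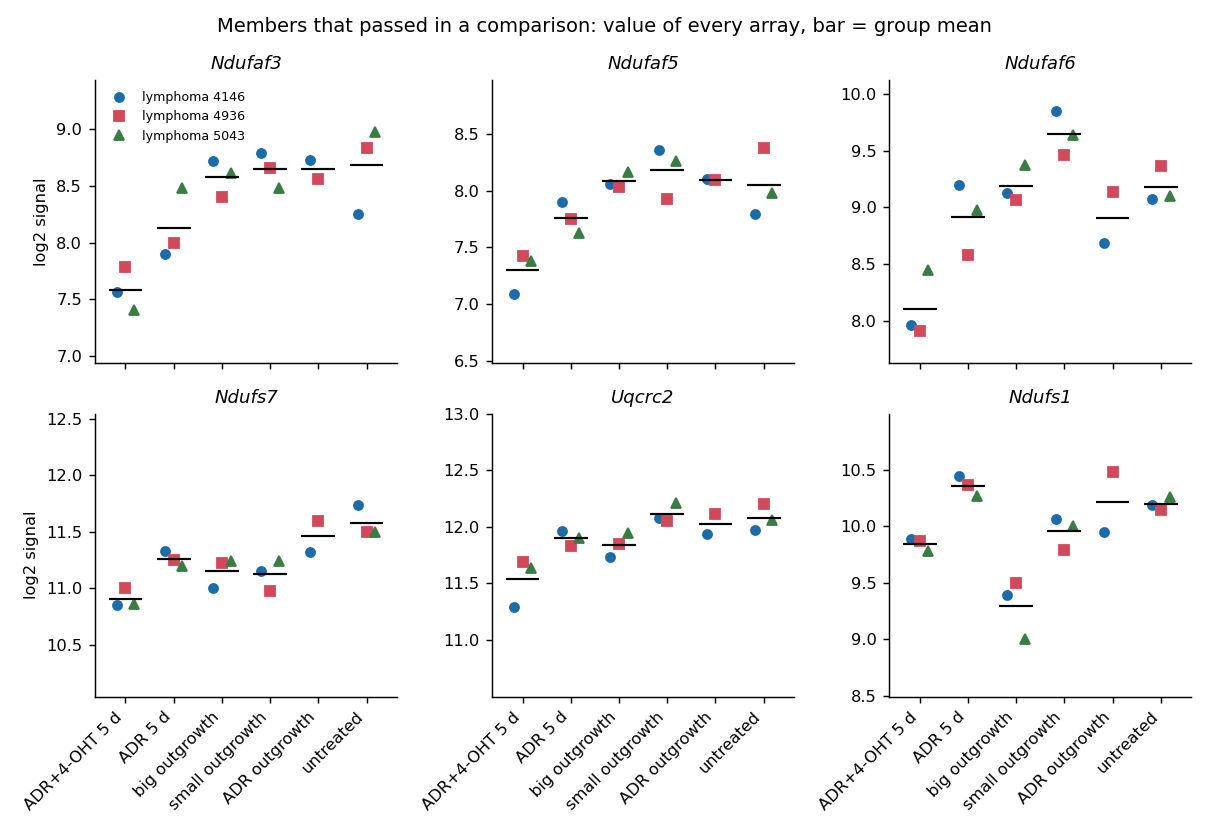
Log2 signal of every array for the 6 members that passed in a comparison, by group along the horizontal axis; point shapes mark lymphomas and bars are group means. For Ndufaf3, Ndufaf5, Ndufaf6, Ndufs7 and Uqcrc2 the ADR+4-OHT 5 d points lie under the untreated ones, and for Ndufs1 the big outgrowth points, 9.39, 9.50 and 9.01, lie under all others.

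All 4 genes of complex II, succinate dehydrogenase, had negative differences after ADR+4-OHT, and none passed. Sdhb, the iron-sulfur subunit, read 10.77, 11.19 and 11.04 in ADR+4-OHT 5 d cultures, against 11.53, 11.48 and 11.54 in untreated cultures. The groups did not overlap, and the difference of -0.51 (SE 0.15) had a limma adjusted p of 0.0866. Sdhc and Sdhd, which anchor the enzyme in the membrane, had -0.43 and -0.18. Sdha, the flavoprotein that oxidises succinate, had -0.03 in its brightest probe set (SE 0.13) and -0.67 in a further one (SE 0.15, limma adjusted p = 0.0440 with every probe set tested on its own), so that its probe sets disagree.

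Complex III was divided. Uqcrc2 (chr7:120635189-120659523), a core protein of its matrix face, read 11.29, 11.69 and 11.63 after ADR+4-OHT, against 11.97, 12.20 and 12.06 in untreated cells, with no overlap. The difference was -0.54 (SE 0.12, limma adjusted p = 0.0426), and a further probe set gave -0.59. Uqcrfs1, the Rieske iron-sulfur protein, had -0.51 (limma adjusted p = 0.0794) and Uqcrc1, the other core protein, -0.38, whereas the small subunit Uqcr11 had 0.36. Of the 8 members 4 were negative, and the median was -0.07.

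Complex IV had a median difference of -0.01, and 10 of its 17 members were negative. In this complex 4 members (23.5%) were lower in every lymphoma, close to the 21.4% of all genes. The widely expressed isoforms Cox6a1 and Cox7a2 varied little, with SDs of 0.106 and 0.0854 over the 17 arrays. Not all members of the complex did so: the SD was 0.327 for Cox5b and 0.355 for Cox7a2l. Cox6a1 read 14.21, 14.15 and 14.00 after ADR+4-OHT, against 14.20, 14.25 and 14.30 in untreated cells, and Cox7a2 read 13.08, 13.06 and 12.87, against 13.09, 13.08 and 13.20.

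Cox6a2, the heart and skeletal muscle isoform of the same subunit as Cox6a1, varied most of all members. It read 6.07, 7.48 and 9.13 in ADR+4-OHT 5 d cultures, 7.57, 5.58 and 9.50 in ADR 5 d cultures, and 9.38, 10.71 and 11.20 in untreated cultures. In each lymphoma both treated cultures were under the untreated one. Over all lymphomas the ADR+4-OHT values did not overlap the untreated ones, and the ADR values did. The fitted differences were -2.87 after ADR+4-OHT (SE 0.92, limma adjusted p = 0.112) and -2.88 after ADR (SE 0.92, limma adjusted p = 0.335), and neither passed. In the outgrowths it read 9.38, 10.34 and 9.16 (big), 10.21, 10.45 and 8.83 (small) and 8.95 and 7.98 (ADR outgrowth of 4146 and 4936). The second probe set of Cox6a2 followed the first, with -3.02 after ADR+4-OHT and -3.01 after ADR. Cox7a1, the muscle isoform beside Cox7a2, scattered without a common direction, at 6.56, 6.64 and 4.18 after ADR+4-OHT and 6.59, 6.50 and 6.57 in untreated cells.

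**Figure D4:**
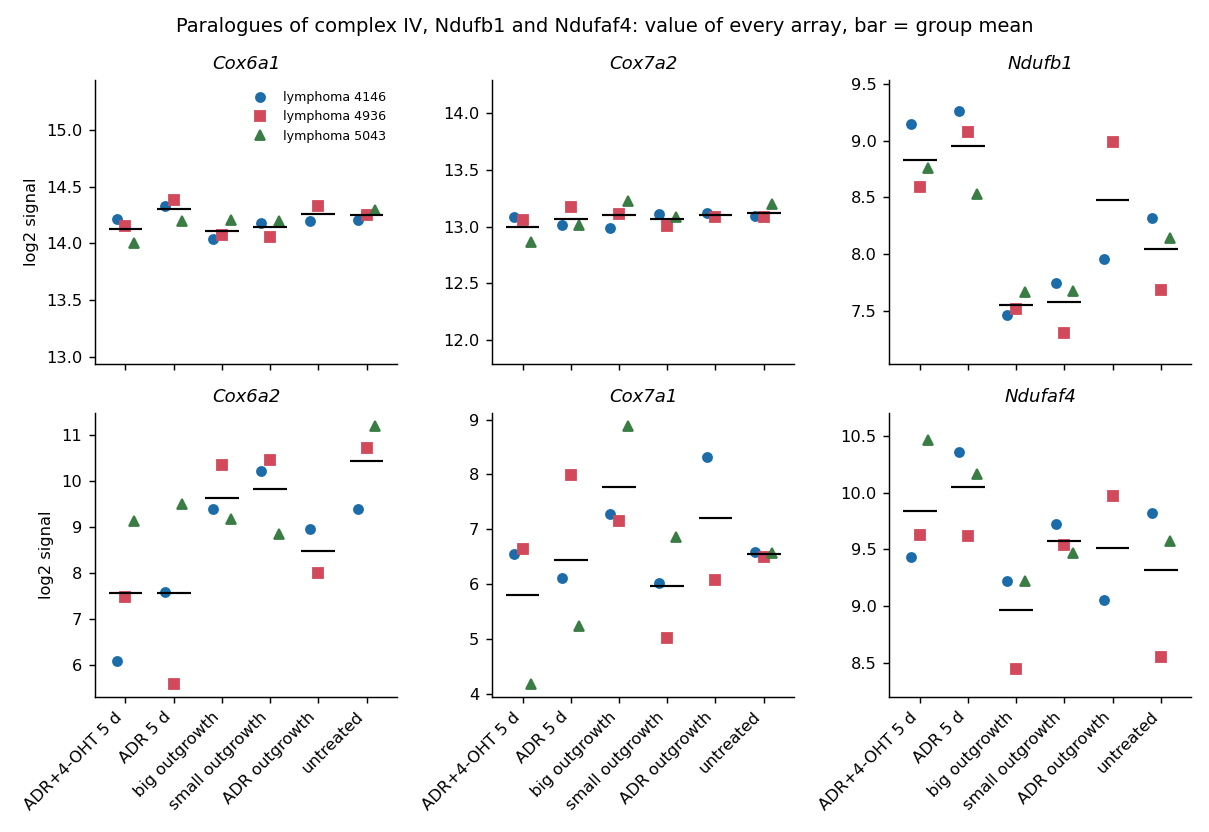
Log2 signal of every array for the complex IV paralogue pairs Cox6a1 and Cox6a2 and Cox7a2 and Cox7a1, and for Ndufb1 and Ndufaf4, by group along the horizontal axis; point shapes mark lymphomas and bars are group means. Cox6a2 spans 5.58 to 11.20 while Cox6a1 spans 14.00 to 14.38, and Ndufb1 is higher in all cultures taken at 5 days than in untreated cells.

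Complex V had a median of -0.19, with 13 of 17 members negative and 8 (47.1%) lower in every lymphoma. Atp5a1, the alpha subunit of the catalytic head, read 12.39, 12.48 and 11.89 after ADR+4-OHT, against 12.74, 12.74 and 12.70 in untreated cells. The groups did not overlap, and the difference of -0.47 (SE 0.17) did not pass (limma adjusted p = 0.144). Atp5l, the g subunit of the membrane part, had the highest difference of the complex, 0.31. Differences between complexes were not tested.

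The 5 calls of ADR+4-OHT 5 d against untreated cells rest on single arrays. The count was 0 without untreated 4936, untreated 5043, ADR+4-OHT 5 d of 4936 or ADR+4-OHT 5 d of 5043, and 1 without untreated 4146, and it was 0 without any 1 of the lymphomas. Without all 4 arrays in doubt it was 3, and Ndufaf3 and Ndufaf6 were among them. Macrophage markers moved in the same comparison: 2 of 13 tested markers rose (all genes 0.891%), the lysozymes Lyz1 and Lyz2. All 13 were positive, 11 were higher in every lymphoma (all genes 20.7%), and their median was 1.94. The log2 of the summed signal of the 19 markers ran from 12.4 to 14.9 in ADR+4-OHT 5 d cultures and from 10.1 to 11.3 in untreated cultures. Of these 19, 7 were under 4.86 on every ADR+4-OHT array, among them Adgre1 and the complement genes C1qa, C1qb and C1qc. Their part in the members' differences was not tested.

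With ADR alone at 5 days, none of the 87 members passed against untreated cells, and 0% of all genes did (limma). At an unadjusted p under 0.05, 4 members were lower and 3 higher, where 5.37% and 5.96% of all genes were. The median of the members was 0.00, with 42 negative, and it was -0.01, 0.15 and -0.04 in the 3 lymphomas. The value of 0.15 is that of lymphoma 4936, whose ADR 5 d array is among those that stood apart. In this comparison 18 members were lower in every lymphoma (20.7%, all genes 19.5%) and 21 were higher in every lymphoma (24.1%, all genes 21.8%). Next to Cox6a2 the members farthest from 0 were Ndufb1, at 9.26, 9.08 and 8.53 after ADR and 8.32, 7.69 and 8.14 in untreated cells, and Ndufaf4, at 10.36, 9.61 and 10.17 after ADR and 9.82, 8.56 and 9.58 in untreated cells. Ndufb1 did not overlap between the groups and had a difference of 0.91 (SE 0.29, limma adjusted p = 0.335), while Ndufaf4 did overlap and had 0.73 (SE 0.35, limma adjusted p = 0.451). Without overlap 11 members (12.6%) were higher and 7 (8.05%) lower, against 11.8% and 10.4% of all genes. Complex V had Atp5g1, a c-ring subunit, highest at 0.62 and its paralogue Atp5g2 lowest at -0.32. Atp5g1 read 11.82, 12.11 and 11.33 after ADR and 11.54, 10.67 and 11.19 in untreated cells. Atp5g2 read 11.56, 11.50 and 11.87 after ADR and 11.84, 12.19 and 11.86 in untreated cells. The lowest values of complexes I and III were -0.44 (Ndufv3) and -0.18 (Uqcrc2). Ndufv3 read 12.17, 11.69 and 12.44 after ADR and 12.44, 12.75 and 12.44 in untreated cells. For Atp5g1, Atp5g2, Ndufv3 and Uqcrc2 the largest difference was that of lymphoma 4936. The assembly factors that fell after ADR+4-OHT had -0.56 (Ndufaf3), -0.29 (Ndufaf5) and -0.26 (Ndufaf6) after ADR alone. These comparisons share the untreated arrays. Macrophage markers moved with ADR alone too: all 13 tested were higher in every lymphoma, with a median of 2.17, and none passed. The log2 of the summed signal of the 19 markers was 11.8, 16.4 and 11.6 in ADR 5 d cultures and 10.9, 11.3 and 10.1 in untreated cultures. The value of 16.4 is that of the 4936 array that stood apart. Fibroblast markers had a median of 1.96, with 8 of 10 higher in every lymphoma. The excess of the 3′ over the 5′ Actb probe set, which grows when RNA is degraded, was 0.563 to 1.17 in ADR 5 d and 1.39 to 1.65 in untreated cultures. The same excess for Gapdh overlapped, at 0.366 to 0.496 and 0.479 to 0.54. The part of these in the members' differences was not tested.

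The comparison of ADR+4-OHT with ADR at 5 days asks what the addition of 4-OHT to the drug changed, and here also no member passed, with 0% of all genes called (limma). At an unadjusted p under 0.05, 15 members were lower and 1 was higher, where 7.6% and 4.93% of all genes were. The members as a group lay lower with 4-OHT: the median was -0.21, 73 of 87 were negative, and 50 (57.5%) were lower in every lymphoma, against 22% of all genes. Another 2 members (2.30%) were higher in every lymphoma, against 16.9% of all genes. The median was -0.19, -0.25 and -0.17 in the 3 lymphomas, where the median of all genes was -0.03, -0.03 and -0.01. In lymphoma 5043, the only one with neither array in doubt, 78.2% of the members were lower, beside 51.5% of all genes, and without the 4 arrays in doubt the fitted median was -0.17.

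**Figure D5:**
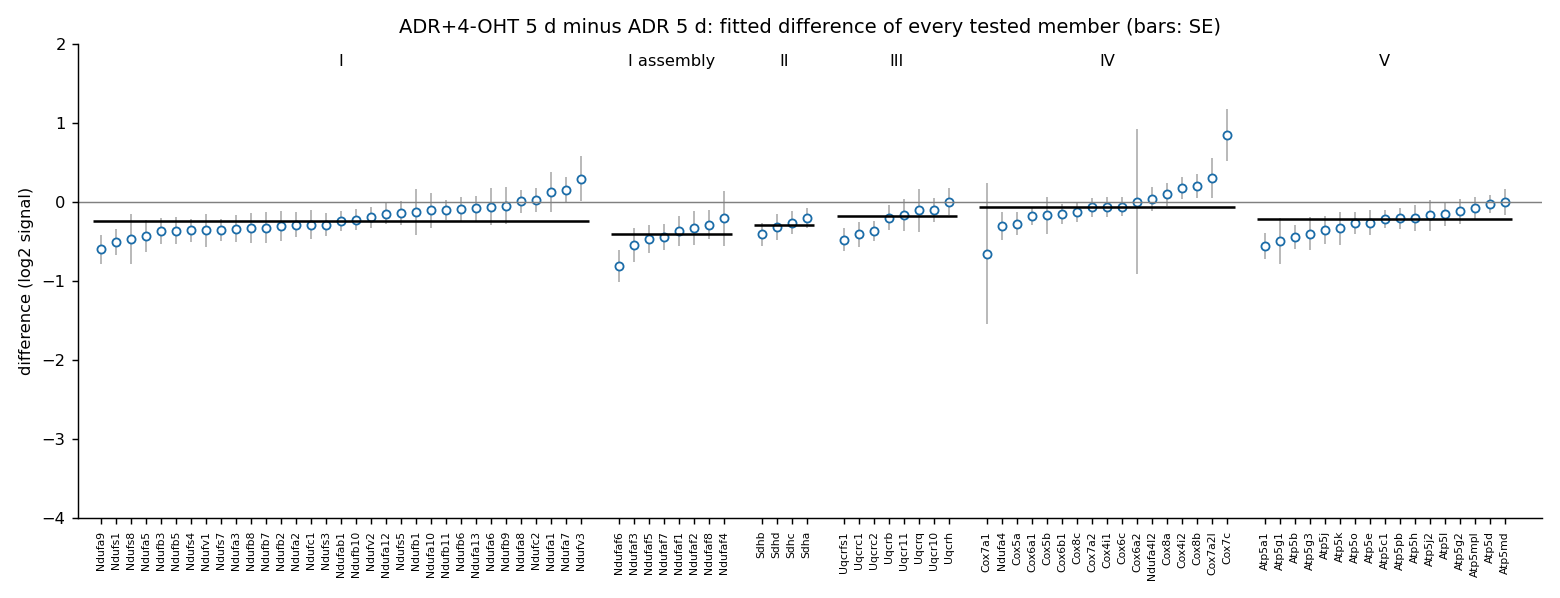
Fitted difference of ADR+4-OHT 5 d minus ADR 5 d (log2 signal) for each of the 87 tested members, ordered within complexes; bars are SE, all points are open because none passed, and black lines are the median of a complex. All 8 assembly factors and all 4 complex II genes lie under 0, and Cox7c has the highest value, 0.85.

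By complex, the medians with 4-OHT against ADR alone were -0.40 for complex I assembly (8 of 8 negative), -0.29 for complex II (4 of 4), -0.24 for complex I (28 of 33), -0.21 for complex V (16 of 17), -0.18 for complex III (7 of 8) and -0.06 for complex IV (10 of 17). Ndufaf6 had the lowest difference, with 7.96, 7.90 and 8.45 in ADR+4-OHT 5 d cultures and 9.20, 8.58 and 8.98 in ADR 5 d cultures. The groups did not overlap, and the difference of -0.81 (SE 0.21) had a limma adjusted p of 0.207. Without overlap 35 members (40.2%) were lower and 2 (2.30%) higher, against 13.5% and 9.01% of all genes. The lowest members of the other complexes were Ndufa9 of complex I (-0.60), a subunit beside the ubiquinone site, Atp5a1 (-0.56), Uqcrfs1 (-0.48) and Sdhb (-0.41). Complex IV spread widest, between Cox7a1 at -0.65 (SE 0.89) and Cox7c, a small structural subunit, at 0.85. Cox7c read 7.88, 7.31 and 8.34 with 4-OHT and 7.15, 6.83 and 7.01 with ADR alone, without overlap, and its SE was 0.32 (limma adjusted p = 0.316). The log2 summed signal of 17 fibroblast markers was 9.17 to 10.1 in ADR+4-OHT 5 d cultures and 10.6 to 12.1 in ADR 5 d cultures. The excess of the 3′ over the 5′ Actb probe set was 1.17 to 1.51 in ADR+4-OHT 5 d and 0.563 to 1.17 in ADR 5 d cultures. It grows when RNA is degraded. The same excess for Gapdh overlapped more widely, at 0.415 to 0.568 and 0.366 to 0.496. Their part in the members' differences was not tested.

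In the outgrowths, 14 days after the drugs were removed, 1 member passed in any of the 5 comparisons of outgrowths. Ndufs1 (chr1:63143592-63176822), the largest iron-sulfur subunit of complex I, fell in big outgrowth cells, with 9.39, 9.50 and 9.01, against 10.19, 10.14 and 10.26 in untreated cells. Every big outgrowth value lay under the values of all other groups, the nearest being 9.78 after ADR+4-OHT. The difference from untreated cells was -0.90 (SE 0.16, limma adjusted p = 0.0478), a 1.86-fold fall, in a comparison where 0.412% of all genes passed and 0.126% fell. It was -0.77 without the arrays that stood apart, and no longer passed (limma adjusted p = 0.177). Against small outgrowth cells, at 10.07, 9.79 and 10.01, Ndufs1 had -0.66 (SE 0.16, limma adjusted p = 0.175).

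Over all members big outgrowth cells had a median difference of -0.05 from untreated cells, 51 of 87 were negative, and 25 (28.7%) were lower in every lymphoma, against 23.1% of all genes. At an unadjusted p under 0.05, 11 members were lower and 3 higher, where 9.89% and 6.4% of all genes were. Complex I assembly had a median of -0.35, with Ndufaf8 lowest at -0.59 and Ndufaf5 highest at 0.04. In complex IV the muscle isoforms lay farthest apart, Cox7a1 at 1.22 (SE 0.89, limma adjusted p = 0.514) and Cox6a2 at -0.80, and neither passed. Next to Ndufs1 the extremes of complex I were completed by Ndufa6 at 0.43, and those of complex II were Sdha at -0.33 and Sdhd at 0.04. Complex V ran from Atp5a1 at -0.55 to Atp5mpl at 0.40, and complex III from Uqcrc1 at -0.35 to Uqcrh, the hinge protein of complex III, at 0.59 (12.98, 13.03 and 13.55 in big outgrowth cells and 12.36, 12.82 and 12.61 in untreated cells). Uqcrh did not overlap between the groups and did not pass (SE 0.17, limma adjusted p = 0.142). Without overlap 17 members (19.5%) were lower and 7 (8.05%) higher, against 16.7% and 13.1% of all genes. Fibroblast markers moved in this comparison, where 5 of 10 tested markers rose (Bgn, Col1a2, Dcn, Fn1 and Pdgfra), against 0.286% of all genes. The log2 summed signal of the 17 markers was 12.2 to 13.9 in big outgrowth cells and 8.79 to 9.36 in untreated cells, with Pdgfrb, Postn and Loxl1 under 4.86 on every big outgrowth array, and their part in the fall of Ndufs1 was not tested.

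Big against small outgrowth cells compares cells of the same cultures that differ in size, and none of the 87 members passed, with 0% of all genes called (limma). At an unadjusted p under 0.05, 8 members were lower and 3 higher, where 5.82% and 4.62% of all genes were (10.4% in either direction). All 8 assembly factors were negative, with a median of -0.35 and Ndufaf1, a factor of the intermediate assembly steps, lowest at 8.53, 8.50 and 8.74 in big cells and 9.17, 9.28 and 9.16 in small cells. Ndufaf1 did not overlap, and its difference was -0.62 (SE 0.19, limma adjusted p = 0.267). Without overlap 16 members (18.4%) were lower and 5 (5.75%) higher, against 12.8% and 8.99% of all genes. The 4 complex II genes were negative too, with Sdhd lowest at -0.41, while the medians of complexes I, III, IV and V lay between 0.01 and 0.07. These pooled medians join lymphomas of opposite sign: complex I had -0.17, 0.22 and 0.04 and complex V -0.17, 0.28 and 0.03, and 72 of 87 members were lower in big cells of 4146, against 35 in 4936 and 37 in 5043. Both arrays of 5043 are among those that stood apart. The assembly factors had medians of -0.47, -0.33 and -0.21. Fibroblast markers moved in the same comparison, with 10 of 10 tested higher in every lymphoma (all genes 17.8%) and a median of 2.16. Their log2 summed signal was 12.2 to 13.9 in big cells and 9.52 to 10.4 in small cells. Macrophage markers had a median of 1.18, with 8 of 13 higher in every lymphoma (all genes 17.8%). The part of these markers in the members' differences was not tested. Cox7a1 had the highest difference, with 7.28, 7.14 and 8.89 in big cells and 6.01, 5.01 and 6.85 in small cells. It was higher in big cells of every lymphoma, and the difference of 1.81 (SE 0.89) did not pass (limma adjusted p = 0.512).

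Small outgrowth cells, set against ADR outgrowth cells in lymphomas 4146 and 4936, had a median of -0.11, and no member and 0% of all genes passed (limma). At an unadjusted p under 0.05, 9 members were lower and 6 higher, where 8.36% and 5.08% of all genes were. The 2 lymphomas differed, with medians of 0.03 in 4146 and -0.36 in 4936. B-cell markers had a median of 0.56 in this comparison, with 7 of 15 higher and 1 lower in both lymphomas, against 29.8% and 27% of all genes. Macrophage markers had -0.54, with 8 of 13 lower in both (all genes 27%). Fibroblast markers had 0.74, with 9 of 10 higher in both (all genes 29.8%). No marker passed, and their part in the members' differences was not tested. In that fit the lowest member was Cox7a1 at -1.16 and the highest Cox6a2 at 1.08, and Ndufaf6 had 0.69 (SE 0.23, limma adjusted p = 0.294). In lymphomas 4146 and 4936 Cox7a1 read 6.01 and 5.01 in small and 8.31 and 6.08 in ADR outgrowth cells. Cox6a2 read 10.21 and 10.45 in small and 8.95 and 7.98 in ADR outgrowth cells. Ndufaf6 was negative with 4-OHT at 5 days, and the test of the difference between its change in outgrowths and its change at 5 days gave a positive value (95% interval 0.82 to 2.18) that did not pass, with a limma adjusted p of 0.262, the lowest of any member for that test, in which 0% of all genes passed.

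The median difference from untreated cells was -0.05 in small outgrowth and 0.03 in ADR outgrowth cells, with no member and 0% of all genes called in either (limma). For small outgrowth it was -0.07, -0.10 and -0.03 in the 3 lymphomas, and the 5043 array is among those that stood apart. For ADR outgrowth the sign differed, with -0.06 in 4146 and 0.12 in 4936. The fit of ADR outgrowth also uses the untreated array of 5043, which has no ADR outgrowth partner. At an unadjusted p under 0.05, 2 members were lower and 3 higher in small outgrowth cells (all genes 4.9% and 3.4%, 8.3% in either direction), and none was lower and 2 were higher in ADR outgrowth cells (all genes 1.94% and 2.55%, 4.49% in either direction). The members that fell after 5 days of ADR+4-OHT had differences near 0 or above in small outgrowth cells, with 0.47 for Ndufaf6, 0.13 for Ndufaf5, 0.04 for Uqcrc2 and -0.04 for Ndufaf3, except Ndufs7, which had -0.45. Ndufs7 read 11.16, 10.98 and 11.24 in small outgrowth cells and 11.74, 11.50 and 11.50 in untreated cells, without overlap. In that comparison 10 members (11.5%) were lower without overlap and 8 (9.20%) higher, against 9.2% and 9.1% of all genes. Ndufb1 had -0.47 in small and -0.50 in big outgrowth cells, at 7.31 to 7.75 and 7.47 to 7.67, where the untreated cells had 7.69 to 8.32. In ADR outgrowth against untreated cells B-cell markers had a median of -0.73, with 9 of 15 lower in both lymphomas (all genes 20.1%). Macrophage markers had 1.33 there, with 7 of 13 higher in both (all genes 21%), and fibroblast markers -0.05. No marker passed, and their part in the members' differences was not tested.

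Other genes of the pathway, from lists made for this work, were read in the same fits. Of 76 tested proteins of the mitochondrial ribosome, which translates the subunits coded by mitochondrial DNA, 4 fell and none rose after ADR+4-OHT against untreated cells: Mrps15 (-0.93), Mrps10 (-0.69), Mrpl47 (-0.64) and Mrpl35 (-0.61). Those 4 are 5.26% of the list, beside 2.05% of all genes. The median of the 76 was -0.28, and against ADR alone it was -0.39, with 75 of 76 negative, 57 (75.0%) lower in every lymphoma beside 22% of all genes, and none passing. Of 17 tested genes of pyruvate oxidation and the citric acid cycle 1 fell after ADR+4-OHT, the fumarase Fh1 (-0.80, limma adjusted p = 0.0419), which is 5.88% of the list, and the median was -0.33. Among 21 regulators of mitochondrial biogenesis Tfb1m, a methyltransferase of mitochondrial ribosomal RNA, fell by 0.84 on the log2 scale (limma adjusted p = 0.0119), Nrf1, the gene of nuclear respiratory factor 1, had -0.75 (limma adjusted p = 0.0968), and the median was -0.09.

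Of 17 electron carriers and ubiquinone enzymes none passed after ADR+4-OHT, with a median of -0.36. In big outgrowth against untreated cells 1 of the 17 rose, where 0.286% of all genes did, and the median was -0.32. It was Sqor, a sulfide oxidase that feeds ubiquinone (1.82, limma adjusted p = 0.0254). Fibroblast markers had a median of 2.80 in that comparison, with 5 of 10 tested called, and their part in the rise of Sqor was not tested. The 35 tested assembly factors outside the member rule had a median of -0.08 after ADR+4-OHT against untreated cells, with none passing, and -0.21 against ADR alone. The array read 1 gene of the mitochondrial DNA in these lists, ND5, a proton-pumping subunit of complex I. Its difference was 0.73 after ADR+4-OHT against untreated cells (SE 0.33, limma adjusted p = 0.248) and 1.12 against ADR alone (limma adjusted p = 0.231), with the opposite sign to the medians of the nuclear complex I genes, and it did not pass.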

How the data were processed

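RNA of 18 samples was hybridised to Affymetrix arrays of 45101 probe sets. The deposited values are log2 signals, and RMA and Partek are named in the submitters' processing notes, with order and parameters not given in the sources used here. Every probe set has the same median in each lymphoma (tolerance 1e-06), so offsets between lymphomas were removed before deposit; differences within a lymphoma are free of this, and overlap between groups is read on these values. The deposited values run from -1.95 to 15.87, and 17 of 18 value columns hold data. Precision is limited by the number of arrays.

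Gene symbols came from the annotation of the platform (34958 with 1 symbol, 932 with several and left out, 9211 not listed), and all 90 members matched the RefSeq gene table. Of the members, 39 have 1 probe set, and 18 are read by probe sets of the types s_at or x_at, which may bind related transcripts. Genes at or above 4.86 on at least 3 arrays were fitted with limma 3.58.1 in R 4.3.3 by group with an additive block for lymphoma (9 residual degrees of freedom), and p-values were adjusted by Benjamini-Hochberg over 11897 genes at 0.05. The block rests on the treatment protocol, by which each lymphoma received both treatments; removing lymphoma medians prevents a check of the pairing on the values. Fold sizes are 2 to the power of log2 differences, on a signal scale that understates changes of dim probe sets. The method was tested on simulated data. Lists cover mitochondrial ribosome, citric acid cycle, biogenesis, electron carriers, assembly factors, mitochondrial DNA, tissue isoforms and cell markers.

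Named are the Sdh genes, tissue isoforms and their paralogues, every member that passed, extreme members of each complex in a comparison (not all of them are printed), and, of other lists, up to 3 that passed or otherwise 2 with the largest difference; further genes of the mitochondrial ribosome, Nrf1, ND5, Cox7a1 and the assembly factors beside these were chosen after their values were seen. Members, lists and the doubt about 4 arrays were chosen with earlier results of these data known. Alternatives were quantile normalisation, median centring, no block, no filter, a stricter filter (percentile 60), averaging a gene's probe sets, each probe set alone, a variance trend with robust fitting, array weights, and leaving out lymphomas or arrays.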

Additional observations from a re-analysis of the deposited data

How the results depend on the processing

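The 5 falls of ADR+4-OHT 5 d against untreated cells became 3 with the mean over probe sets, 3 without 4 arrays and 11 with array weights (whose estimation stopped before convergence), and ranged from 0 to 5 when a lymphoma or an array was left out. The block for lymphoma is the replicate block of this design. Without it the counts were 5 for ADR+4-OHT 5 d against untreated cells, 1 for big outgrowth against untreated cells and 0 for the others. The 6 members called with the block passed without it too (limma adjusted p 0.00960 to 0.0271). Lymphoma medians were removed before deposit, so the fit without the block still carries the pairing and cannot show whether the calls depend on it. Over all genes the calls moved more, with 623 without the block and 350 with it for ADR+4-OHT 5 d against untreated cells, 112 and 49 for big outgrowth against untreated cells, 30 and 0 for big against small outgrowth cells, and 13 and 0 where ADR+4-OHT 5 d was set against ADR 5 d. Ndufaf5 missed the threshold under 6 alternatives beside those that left out a lymphoma, Uqcrc2 under 3 and Ndufs7 under 2, with limma adjusted p between 0.0510 and 0.139. The single fall in big outgrowth cells against untreated cells, Ndufs1, became 0 with the stricter filter (limma adjusted p = 0.0515), 0 without 3 arrays, 0 without 4 arrays and 9 with array weights, and ranged from 0 to 1 when a lymphoma or an array was left out; without lymphoma 4936 its limma adjusted p was 0.0504. Array weights also gave 7 calls for ADR+4-OHT 5 d against ADR 5 d and 2 for big against small outgrowth cells, where the counts were 0 otherwise. The median of the members for ADR+4-OHT 5 d against ADR 5 d was -0.16 with quantile normalisation and -0.29 to -0.16 when a lymphoma or an array was left out, and that for ADR+4-OHT 5 d against untreated cells -0.24 to -0.17. The other medians changed sign when a lymphoma or an array was left out: -0.10 to 0.020 for small outgrowth, -0.10 to 0.02 for big outgrowth, -0.06 to 0.07 for ADR 5 d and -0.06 to 0.14 for ADR outgrowth against untreated cells, -0.08 to 0.10 for big against small outgrowth cells, and -0.23 to 0.02 for small against ADR outgrowth cells. The count of members lower in every lymphoma kept within 1.5 times under the alternatives run. No value changed sign where it was called. The causes were not tested. With 3 arrays a group and a median SE of 0.163 for members, differences of the size of the medians cannot be called for single genes.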

Other observations

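Counting, within each lymphoma, on which array a member had its lowest value gave a view that needs no fit. The ADR+4-OHT 5 d array was the lowest for 30 of 87 members in lymphoma 4146 (34.5%, all genes 22.5%), for 18 in lymphoma 4936 (20.7%, all genes 13.2%) and for 52 in lymphoma 5043 (59.8%, all genes 24.0%). In lymphoma 4936 the small outgrowth array was the lowest for 35 members (40.2%, all genes 17%), and in lymphoma 4146 the big outgrowth array was the lowest for 29 (33.3%, all genes 20.8%). These shares come from single arrays and were not tested.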
